A study of Mus musculus with 9 samples.

Results

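The lysosome and autophagy genes examined here are 48 mouse genes of 54307 in the deposited table. They were chosen by their symbols, but with earlier results of these data known. They comprise the MiT/TFE transcription factors, lysosomal membrane proteins, cathepsins, glycosidases, subunits of the proton pump, the ATG8 family, autophagy receptors and the proteins that start and build autophagosomes. Their mRNA was measured in C2C12 cells, an immortalized line of mouse myoblasts (muscle precursor cells), in 3 groups of 3 libraries after 48 h. The HL group received 25 mmol/L glucose with 200 nmol/L liraglutide, an agonist of the GLP-1 receptor, the H group received 25 mmol/L glucose alone, and the NC group was the control. The glucose level of the control medium is not given in the sources used here. All groups are 1 cell line, and no library received liraglutide without high glucose. The mannitol control (25 mmol/L) of the paper's viability and protein assays was not among the sequenced groups. In H against NC, glucose itself and the added solute therefore cannot be told apart. Nothing in the labels ties the libraries to separate cultures, so p-values describe the spread between these libraries, which may be technical.

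Lysosomes are acidic vesicles that break down proteins, lipids and sugars. A proton pump, the V-ATPase, acidifies them, membrane proteins such as LAMP1 line them, and cathepsins and glycosidases cut their contents. In autophagy a double membrane closes around part of the cytoplasm and fuses with the lysosome. ATG8 proteins are attached to that membrane, and receptors such as p62 (Sqstm1) tie cargo to them. TFEB, TFE3 and MITF bind E-box sequences in the promoters of many lysosomal genes, and mTORC1 on the lysosome holds TFEB and TFE3 in the cytoplasm by phosphorylation. In muscle, autophagy and the lysosome remove worn organelles and contribute to protein loss in atrophy. None of these protein activities was measured here, where the values are mRNA levels.

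Expression was given as FPKM, a fragment count scaled to transcript length and to the mapped reads of each library. A fold change is a difference of group means on the log2(FPKM + 0.1) scale from 1 limma fit, and adjusted p-values are over the 13674 genes with at least 1 FPKM in at least 3 libraries. Genes rose or fell where the adjusted p was under 0.05, and were called where the log2 fold change was also over 1 or under -1. Of the 48 members, 46 were tested. The remaining members were Ctsk and Atp6v0d2, which are best known from osteoclasts and stayed below 1 FPKM in every library. Depth, estimated from the size of 1 read in the low values, was 17400000 to 21750000 reads in HL, 19180000 to 23020000 in H and 21050000 to 21160000 in NC, and 99.2% to 99.6% of the low values in a library then lay within 0.1 of a whole read. The 7 myoblast markers summed to 451.6 to 463.34 FPKM in HL, 188.3 to 311.09 in H and 337.64 to 352.95 in NC, most of it from Des, and Pax7 was below 1 FPKM throughout. Of the 6 tested, 1 rose and 3 fell in H against NC, with Myod1 called lower, and 4 rose in HL against H and in HL against NC, 2 of them called in each. The 7 markers of differentiated muscle summed to 19.462 to 22.533 FPKM in HL, 7.173 to 8.8222 in H and 9.5223 to 9.7301 in NC, and the 2 tested were called higher in HL against H and in HL against NC, while neither passed in H against NC. These markers moved with the groups, and their part in the results was not tested.

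To see how cells in high glucose differed from the control, the H group was compared with the NC group. Lysosomal mRNAs were higher in H, most of all the cathepsins: Ctsh was 7.94 times higher by group means, and Cd68, Ctsf, Ctsa and Sqstm1 were 2.73 to 3.68 times higher. Of the 46 tested members, 8 were called higher and 0 lower, where 10.3% of all tested genes were called higher and 5.75% lower. By adjusted p alone 35 members rose, 3 fell (Gusb, Atg3 and Atg7) and 8 did not pass, against 27.1% of all genes higher and 33% lower. Every H library was above every NC library for 35 members and below for 3, against 29.7% and 35.7% of all genes. The median log2 fold change was 0.43 over the members and -0.04 over all tested genes. When the values of each library were rescaled to the same sum (TPM), the median of all genes moved to 0.15 and that of the members to 0.62, so the gap between them was 0.47 on both scales. On that scale 13 members and 1783 of the 13674 genes were called higher, with Lamp1, Npc1, Ctsb, Hexa and Map1lc3b added, and of the members that fell Atg3 alone passed (adjusted p = 0.0318).

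To ask what liraglutide changed in high glucose, the HL group was compared with the H group. Ctsh was the only member called, lower in HL by 1.21 on the log2 scale, where 5.83% of all tested genes were called lower and 3.55% higher. By adjusted p alone 16 members fell and 6 rose (Ctsl, Lgmn, Psap, Atp6v1a, Map1lc3a and Atg7), against 21.7% and 26.7% of all genes, and 24 did not pass. Every HL library was above every H library for 7 members and below for 18, against 30.4% and 24.9% of all genes. The median log2 fold change was -0.10 over the members and 0.04 over all tested genes. Leaving out H replicate 2, or rescaling to TPM, brought Atp6v1h past the fold threshold as well (log2 fold change -1.04 and -1.03).

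To see where the HL group stood against the control, it was compared with the NC group. Ctsh, Ctsa, Ctsf, Ctsd, Cd68 and Sqstm1 were called higher, 6 of 46 members, and 0 were called lower, where 6.3% of all tested genes were called higher and 2.41% lower. By adjusted p alone 27 members rose, 3 fell (Gusb, Atg3 and Atg5) and 16 did not pass, against 21.6% and 27.2% of all genes. Every HL library was above every NC library for 30 members and below for 5, against 29.5% and 36.3% of all genes. After rescaling to TPM Atg5 alone of the members that fell passed (adjusted p = 0.0243). The median was 0.33 over the members and -0.04 over all genes. The 3 comparisons share libraries pairwise, so their fold changes are not independent of each other.

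**Figure D1:**
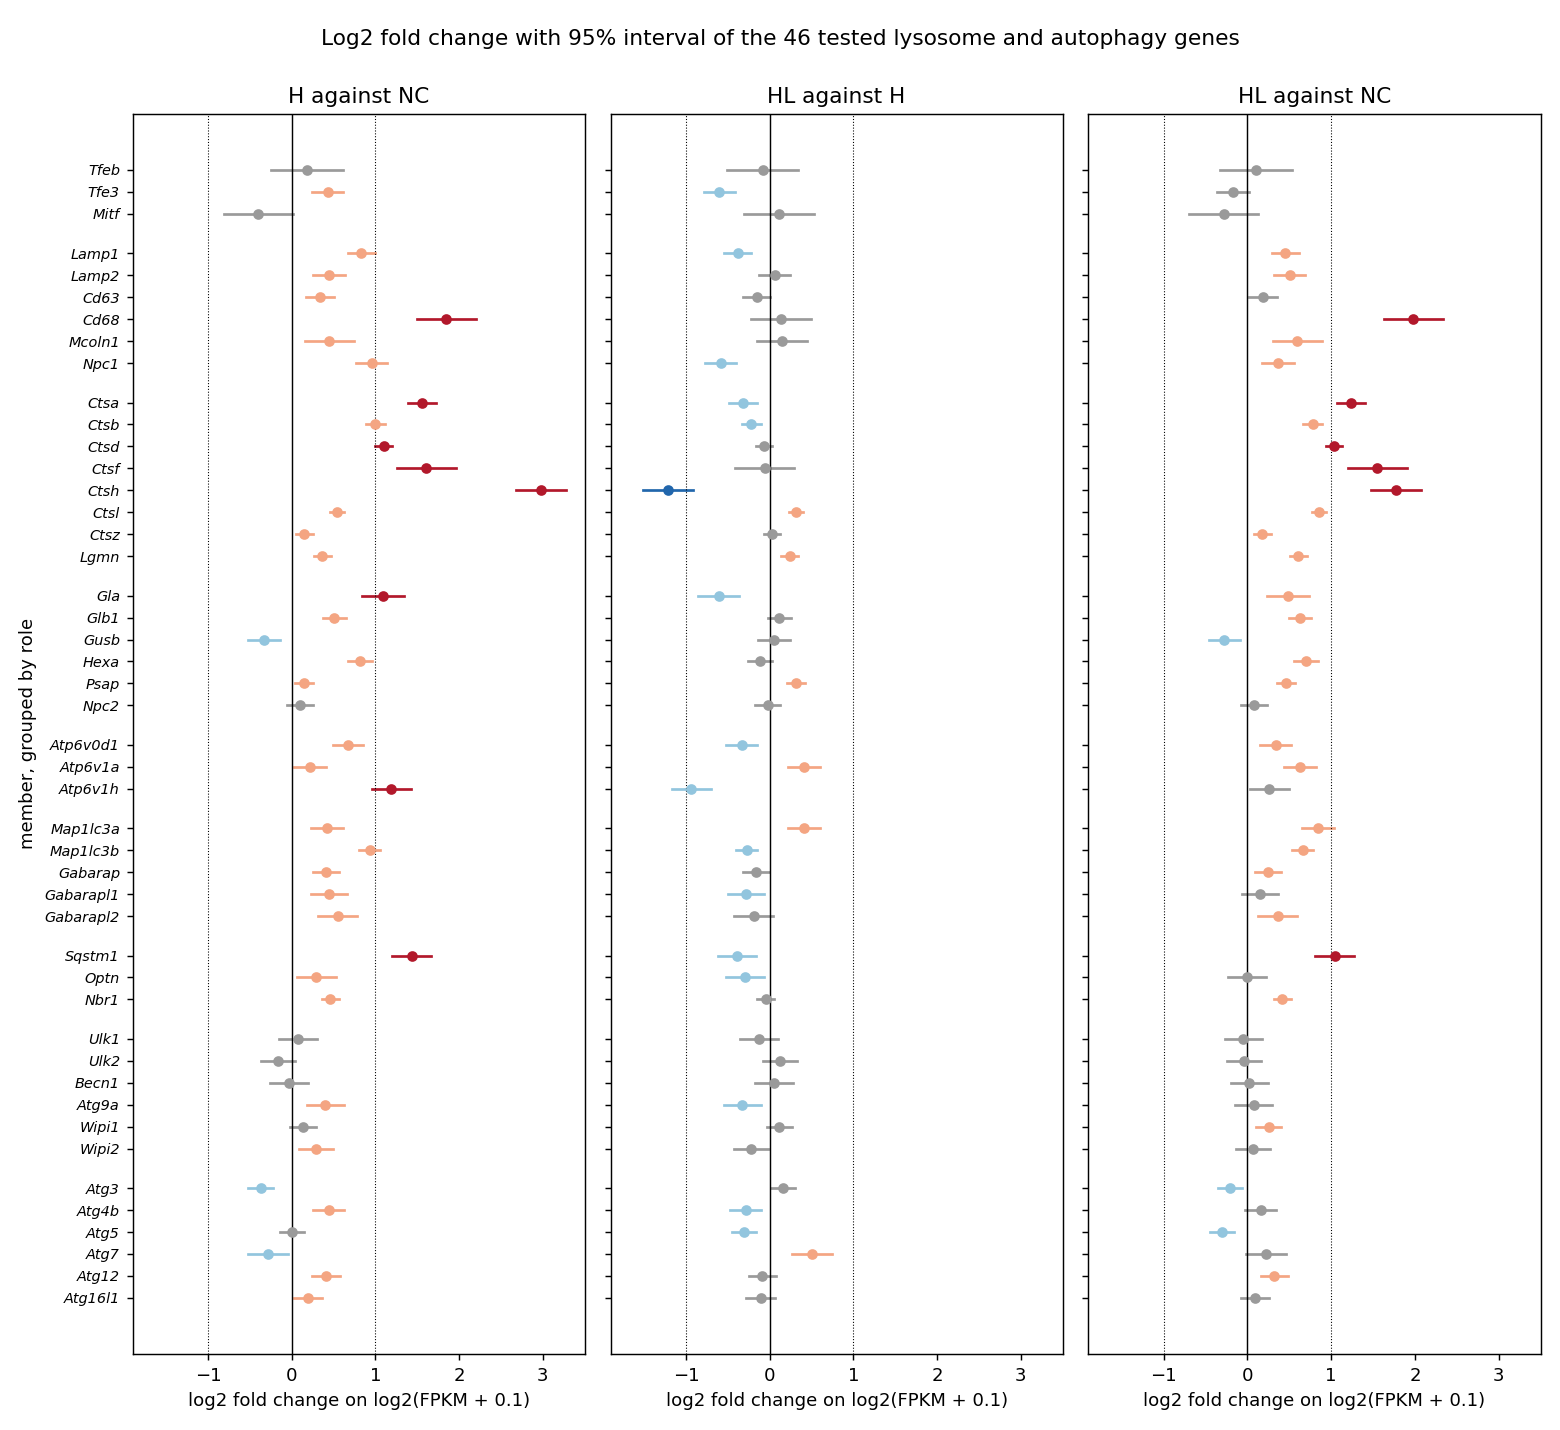
Log2 fold change (horizontal axis, log2(FPKM + 0.1) scale) of each of the 46 tested members in H against NC, HL against H and HL against NC, with the 95% interval as a bar, 3 libraries per group. Dark red and dark blue mark members called higher and lower, light red and light blue those that passed by adjusted p alone, grey those that did not pass, and dotted lines mark the fold threshold. Red points dominate H against NC, Ctsh stands farthest out at 2.98, and HL against H has light points on both sides of 0.

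Summed over the 48 members, FPKM reached 8121.9 to 8167.9 in HL, 8228.9 to 9316.5 in H and 5483.9 to 5578 in NC. This was 1.12% to 1.16% of all FPKM in HL, 1.27% to 1.36% in H and 0.716% to 0.735% in NC, with no overlap between groups. Mean levels over all libraries spanned Cd63 at 1300 FPKM to Mitf at 4.33 FPKM among the tested members, and Ctsl, Ctsb and Sqstm1 followed Cd63. Libraries of the H group agreed least: the median SD of a member on the log2 scale was 0.05 in HL, 0.13 in H and 0.04 in NC, and over all tested genes it was 0.09 in HL, 0.17 in H and 0.07 in NC. H replicate 1 held the highest H value for 25 of the 48 members.

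Of the 3 MiT/TFE factors, Tfe3 changed and the other two did not pass. Tfeb, the main activator of lysosomal genes, had 5.30, 6.12 and 5.99 FPKM in HL, 7.33, 4.27 and 7.41 FPKM in H, and 5.61, 5.11 and 5.45 FPKM in NC. The H values lay on both sides of the others, so all groups overlapped, and no comparison passed (adjusted p = 0.416 in H against NC, 0.738 in HL against H and 0.683 in HL against NC). Mitf, the melanocyte and osteoclast relative of Tfeb, had 3.96, 4.22 and 4.08 FPKM in HL, 2.74, 5.03 and 3.89 in H, and 5.09, 4.84 and 5.09 in NC. It did not pass in any comparison either, with intervals of the log2 fold change of -0.81 to 0.02 in H against NC and -0.30 to 0.53 in HL against H. Tfe3, the most abundant of the 3 genes, had 27.2, 29.3 and 27.9 FPKM in HL, 48.6, 38.3 and 41.8 FPKM in H, and 31.9, 32.2 and 31.1 FPKM in NC. Every H library was above all others. Tfe3 rose in H against NC by 0.43 ± 0.08 on the log2 scale (SE, adjusted p = 0.00163), fell in HL against H by 0.60 (adjusted p = 0.000387), and did not pass in HL against NC (-0.17, adjusted p = 0.115). For Tfe3 and for Mitf every HL library was nonetheless below every NC library. The fit shares 1 estimate of the spread over the groups, and the SD of Tfe3 was 1.05 FPKM in HL, 5.27 in H and 0.56 in NC.

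Promoters of these genes were searched for the E-box (CACGTG), to which the MiT/TFE factors bind. RefSeq windows from 250 bases before to 50 bases after the start (build GRCm38.p6) were at hand for 39 of the 48 members, Ctsh not among them. An E-box was present in 14 of those 39 genes (35.9%), in 19.7% of 117 other lysosome and autophagy genes and in 8.09% of all 27025 genes with a window. Those 27025 genes were taken whether or not they were expressed here, unlike the 13674 tested genes behind the other shares. Stretches are shown for the called members that hold one, for Lamp1, which holds 4, and for Atg3 and Atg7, which hold E-boxes and fell in H. Ctsa, shown at the second of its starts, and Ctsd each hold one more E-box outside the stretch. Each runs 5′ to 3′ on the strand of its gene, with the E-box in capitals and positions counted back from the start of transcription, -1 being the base before it.
Ctsa (chr2:164833731-164833772, + strand, -42 to -1): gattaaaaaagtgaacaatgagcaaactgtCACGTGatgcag
Ctsd (chr7:142387890-142387955, - strand, -128 to -63): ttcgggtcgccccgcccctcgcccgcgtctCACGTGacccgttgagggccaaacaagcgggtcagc
Ctsf (chr19:4855056-4855121, + strand, -109 to -44): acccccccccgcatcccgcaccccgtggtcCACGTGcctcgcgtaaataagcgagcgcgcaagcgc
Gla (chrX:134601164-134601255, - strand, -250 to -159): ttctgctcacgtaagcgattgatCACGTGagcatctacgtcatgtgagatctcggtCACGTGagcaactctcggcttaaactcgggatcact
Lamp1 (chr8:13159070-13159160, + strand, -91 to -1): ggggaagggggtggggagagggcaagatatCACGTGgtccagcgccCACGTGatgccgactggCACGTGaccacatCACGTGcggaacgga
Atg3 (chr16:45158705-45158793, + strand, -124 to -36): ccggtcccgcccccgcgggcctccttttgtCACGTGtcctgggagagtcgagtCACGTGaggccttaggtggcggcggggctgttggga
Atg7 (chr6:114670934-114670999, + strand, -162 to -97): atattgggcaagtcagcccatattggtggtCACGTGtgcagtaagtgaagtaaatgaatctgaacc

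Motifs longer than the E-box were searched as exact matches on both strands. The core of the CLEAR element, TCACGTGA, which contains the E-box, was in 17.9% of the members, 5.98% of the other pathway genes and 1.12% of all genes. A related motif, GTCACGTG, adds the outer base but lacks the last base of that core, so it does not contain the core. It also contains the E-box and was in 25.6%, 12% and 2.55%. The antioxidant response element, TGACNNNGC, was in 20.5% of the members, 15.4% of the other pathway genes and 14% of all genes, and the AP-1 motif, TGANTCA, in 10.3%, 4.27% and 8.97%. Of the 14 tested members with an E-box, 11 rose and 2 fell in H against NC with a median log2 fold change of 0.53, and of the 24 without one 17 rose and 1 fell with a median of 0.37. In HL against H the medians were 0.03 with an E-box (4 rose, 5 fell) and -0.12 without (1 rose, 7 fell). In HL against NC 11 of the 14 with an E-box rose and 2 fell (median 0.60), and 11 of the 24 without rose and 1 fell (median 0.17). Called higher in H against NC were 4 of the 14 and 2 of the 24, against 10.3% of all tested genes. Over all tested genes 27.1% rose and 33% fell in H against NC. The shares were 26.7% and 21.7% in HL against H, and 21.6% and 27.2% in HL against NC. Cd68, with no E-box in its window, was among the strongest rises, and the windows of Atg3 and Atg7 shown above belong to genes that fell. A link between the motif and these changes was not tested. A match describes letters only, and no binding was measured.

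**Figure D2:**
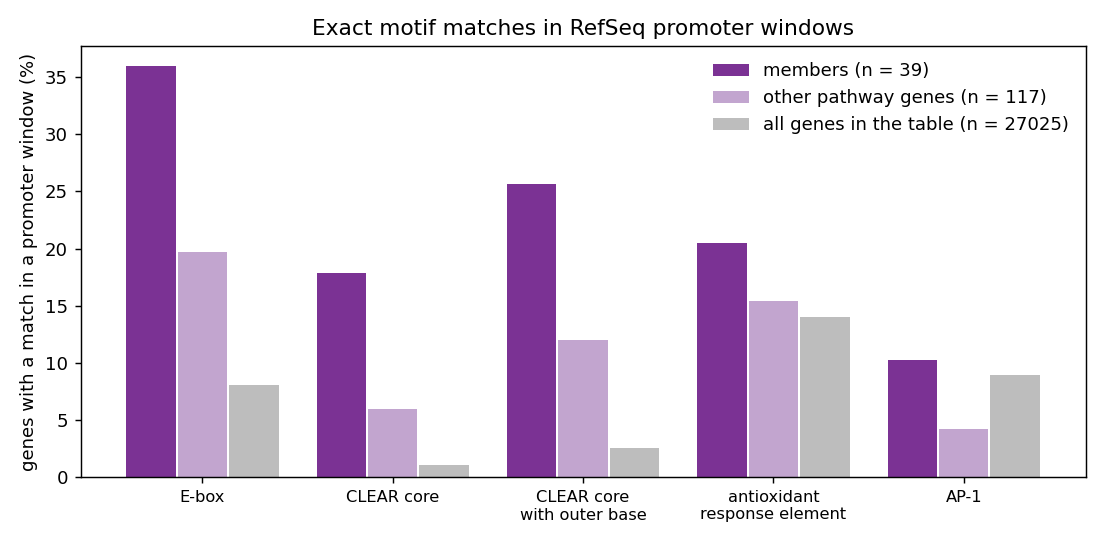
Share of genes with an exact motif match in a RefSeq promoter window (vertical axis, %), for the 39 members with a window, 117 other pathway genes and all 27025 genes. The E-box bar is 35.9% for the members and 8.09% for all genes, while the bars of the antioxidant response element are 20.5% and 14%. The bars named CLEAR core with outer base are for GTCACGTG, which lacks the last base of the core.

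Among the lysosomal membrane proteins, 6 of 6 rose in H against NC and 2 of 6 fell in HL against H. Of all tested genes 27.1% rose and 21.7% fell in those comparisons. Cd63, a tetraspanin of late endosomes and exosomes and the most abundant member, had 1283, 1334 and 1286 FPKM in HL, 1653, 1366 and 1347 in H, and 1160, 1149 and 1128 in NC, with H above NC in every library. It rose by 0.34 ± 0.07 in H against NC (log2, SE, adjusted p = 0.00294), and HL against H did not pass (-0.16, adjusted p = 0.105). Lamp1, a heavily glycosylated protein of the limiting membrane whose promoter with 4 E-boxes is printed above, had 459, 474 and 456 FPKM in HL, 684, 571 and 558 FPKM in H, and 341, 337 and 338 FPKM in NC. The groups were fully separated, with HL between. Lamp1 rose by 0.83 ± 0.07 in H against NC (adjusted p = 1.07e-05), fell by 0.38 in HL against H (adjusted p = 0.00222) and was 0.45 higher in HL than in NC (adjusted p = 0.000835).

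Npc1, which exports cholesterol from the lysosome, had 16.5, 17.3 and 16.3 FPKM in HL, 27.2, 22.3 and 26 FPKM in H, and 13.6, 12.1 and 13.0 FPKM in NC. It stood in the same order as Lamp1, with a rise of 0.95 ± 0.08 in H against NC (adjusted p = 1.28e-05) and a fall of 0.59 in HL against H (adjusted p = 0.000493). Mcoln1, the lysosomal calcium channel TRPML1, took another course, with 46.7, 41.0 and 56.0 FPKM in HL, 39.1, 51.5 and 39.3 in H, and 30.9, 30.6 and 32.8 in NC. HL and H overlapped and both lay above NC. Mcoln1 rose by 0.45 ± 0.13 in H against NC (adjusted p = 0.0146) and by 0.60 ± 0.13 in HL against NC (adjusted p = 0.00488).

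Cd68, a lysosomal glycoprotein best known from macrophages, had 18.3, 19.5 and 19.3 FPKM in HL, 19.4, 13.3 and 20.02 FPKM in H, and 5.58, 4.31 and 4.44 FPKM in NC. Both treated groups were above NC in every library and overlapped each other. It was called in H against NC (1.84 ± 0.16, adjusted p = 9.8e-06) and in HL against NC (1.98 ± 0.16, adjusted p = 2.26e-05), and the interval of HL against H was -0.22 to 0.49. Of 19 other macrophage markers, 16 were below 1 FPKM in every library, Tyrobp, C1qa, C1qb and C1qc were at 0 in all libraries, and Adgre1 and Ptprc stayed under 0.1 FPKM. The summed FPKM of the 19 was 32.972 to 35.594 in HL, 161.14 to 234.32 in H and 28.629 to 31.908 in NC, most of it from Csf1r and Cd14. Csf1r had 0.249, 0.282 and 0.255 FPKM in HL, 149, 91.5 and 133 FPKM in H, and 0.311, 0.357 and 0.686 FPKM in NC. Thus Csf1r was below 1 FPKM in HL as in NC, whereas Cd68 was at the H level in HL. The 3 tested macrophage markers, Csf1r, Coro1a and Cd14, were called higher in H against NC (7.85, 1.88 and 1.35), and Csf1r (-8.40) and Cd14 (-1.20) were called lower in HL against H. Of 9 osteoclast markers, 7 were below 1 FPKM in every library, and the 9 summed to 7.6219 to 8.1809 FPKM in HL, 8.8743 to 11.159 in H and 7.4925 to 8.0827 in NC. The 2 tested, Mmp9 and Nfatc1, rose in H against NC (1.01, called, and 0.30) and fell in HL against H (-0.68 and -0.31). The part of these markers in the results for H was not tested. In bulk RNA, fewer cells of a type and less RNA per cell cannot be told apart.

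Cathepsins are the proteases of the lysosome, and with legumain and the protective protein they formed the role group with the largest median change in H against NC. In H against NC all 8 tested genes rose, 4 of them called, with a median log2 fold change of 1.05. In HL against NC all 8 rose, 4 of them called, with a median of 0.94, whereas in HL against H 2 rose and 3 fell. Of all tested genes 26.7% rose and 21.7% fell in HL against H. Ctsh (ENSMUSG00000032359.15), an aminopeptidase, had 24.5, 20.7 and 26.3 FPKM in HL, 60.6, 51.8 and 52.9 FPKM in H, and 8.33, 6.08 and 6.43 FPKM in NC. The 3 groups were far apart, and HL lay between. The log2 fold change was 2.98 ± 0.13 in H against NC (adjusted p = 2.61e-07), -1.21 ± 0.13 in HL against H (adjusted p = 0.000103) and 1.77 ± 0.13 in HL against NC (adjusted p = 1.77e-05).

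Ctsa, the protective protein that stabilizes other lysosomal enzymes, had 170, 179 and 179 FPKM in HL, 248, 211 and 200 FPKM in H, and 75.8, 72.9 and 74.8 FPKM in NC. HL was below H and far above NC in every library. Its log2 fold change was 1.55 ± 0.07 in H against NC (adjusted p = 4.02e-07), -0.32 ± 0.07 in HL against H (adjusted p = 0.00727) and 1.24 ± 0.07 in HL against NC (adjusted p = 6.84e-06). Ctsf, a papain-like cysteine protease expressed at a low level, had 9.81, 6.88 and 8.51 FPKM in HL, 8.87, 9.77 and 7.52 in H, and 3.22, 2.59 and 2.56 in NC. Ctsd, the main aspartic protease, had 620, 601 and 608 FPKM in HL, 673, 612 and 631 in H, and 297, 298 and 298 in NC. For both genes HL and H overlapped and lay above NC. Ctsf was called in H against NC (1.61 ± 0.16, adjusted p = 2.26e-05) and HL against NC (1.55 ± 0.16, adjusted p = 7.62e-05). Ctsd was called as well, at 1.10 ± 0.04 (adjusted p = 1.86e-07) and 1.03 ± 0.04 (adjusted p = 1.49e-06). Their intervals in HL against H were -0.41 to 0.29 and -0.17 to 0.03.

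The most abundant cathepsins were not called. Ctsb, a cysteine protease of wide specificity, had 866, 830 and 850 FPKM in HL, 1035, 1013 and 917 in H, and 497, 496 and 489 in NC, and its rise in H against NC (adjusted p = 5.22e-07) had a fitted log2 fold change of 0.9985, so it was not called. It was past the threshold on the TPM scale (1.19), after centring on the median (1.02) and without H replicate 3 (1.05), NC replicate 1 (1.003) or NC replicate 2 (1.002). Ctsl, an endopeptidase also induced in muscle wasting, had 1312, 1354 and 1334 FPKM in HL, 1097, 1074 and 1055 in H, and 742, 742 and 728 in NC. HL was the highest group here and not the middle one. Ctsl rose by 0.54 ± 0.04 in H against NC (adjusted p = 2.48e-06) and by a further 0.31 ± 0.04 in HL against H (adjusted p = 0.000161). Lgmn, an asparaginyl protease that processes cathepsins, had the same order, with 125 FPKM in each HL library, 102, 110 and 106 in H, and 81.7, 82.5 and 81.9 in NC. It rose by 0.37 ± 0.04 (adjusted p = 8.49e-05) and 0.24 ± 0.04 (adjusted p = 0.00198) in those comparisons. Ctsk, the collagenase of osteoclasts, had 0.333, 0.414 and 0.739 FPKM in HL, 0.885, 0.252 and 0.176 in H, and 0.955, 0.8 and 0.84 in NC, with no rise to set beside the others.

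**Figure D3:**
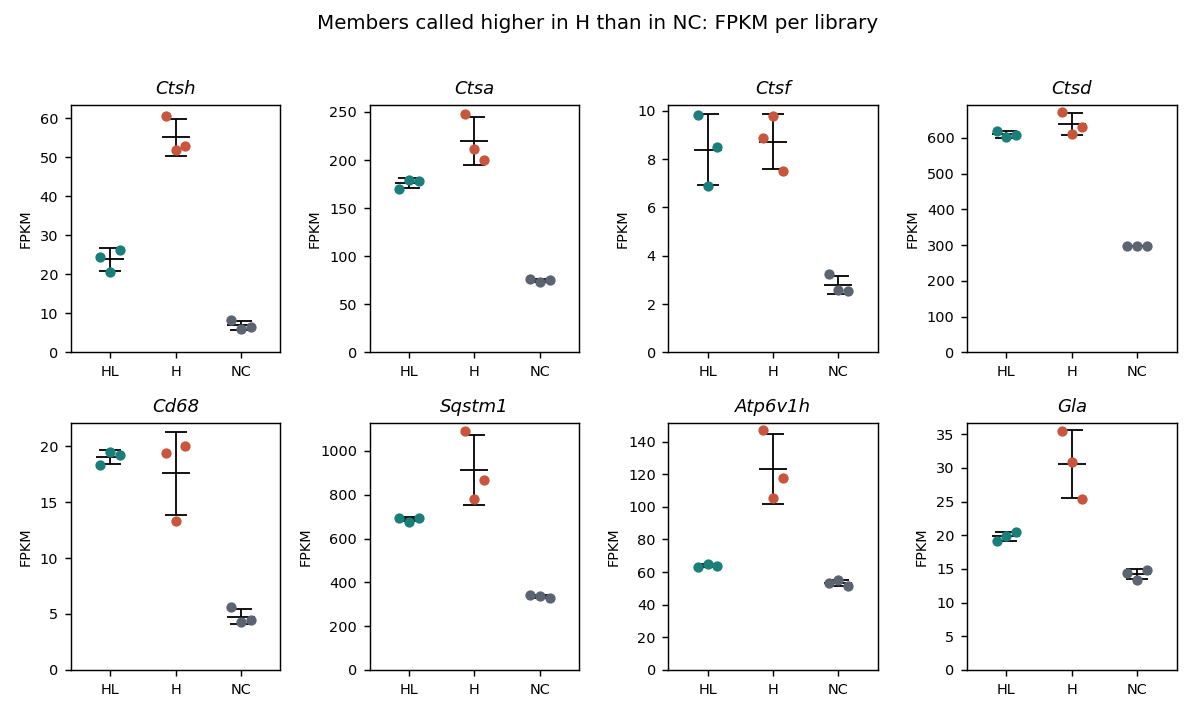
FPKM (vertical axis, from 0) of the 8 members called higher in H than in NC, 1 point per library, with the mean and SD of the 3 libraries of each group as black bars. In NC all points lie lowest, in Ctsh the HL points sit between the groups at 20.7 to 26.3 FPKM, in Atp6v1h they sit near NC, and in Cd68, Ctsf and Ctsd they sit at the H level or just below it.

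Glycosidases and lumenal lipid-handling proteins were less uniform, with 4 of 6 higher, 1 lower and 1 not passing in H against NC. Of all tested genes 27.1% were higher and 33% lower. Gla, the galactosidase deficient in Fabry disease, had 19.1, 19.9 and 20.5 FPKM in HL, 35.4, 30.9 and 25.3 FPKM in H, and 14.3, 13.4 and 14.8 FPKM in NC. HL was closer to NC than to H. Gla was called in H against NC (1.09 ± 0.11, adjusted p = 2.94e-05) and fell in HL against H by 0.61 (adjusted p = 0.00182), and without H replicate 1, its highest library, the H against NC value was 0.98 and no longer called. Hexa, a subunit of the hexosaminidase that degrades GM2 ganglioside, had 77.4, 78.9 and 79.4 FPKM in HL, 84.5, 92.9 and 78.1 in H, and 47.2, 48.5 and 49.1 in NC. Its rise in H against NC was 0.81 ± 0.06 (adjusted p = 5.7e-06).

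Psap, the precursor of the saposins, had 628, 637 and 621 FPKM in HL, 488, 540 and 490 in H, and 454, 461 and 452 in NC, so that HL was highest as for Ctsl and Lgmn. It rose by 0.15 ± 0.05 in H against NC (adjusted p = 0.0214) and by 0.31 ± 0.05 in HL against H (adjusted p = 0.00066). Glb1, the galactosidase assayed in senescent cells, had 40.2, 39.3 and 38.8 FPKM in HL, 33.8, 38.9 and 36.5 in H, and 26.1, 25.1 and 25.3 in NC. It was higher than NC in H (0.51 ± 0.06, adjusted p = 7.9e-05) and in HL (0.63 ± 0.06, adjusted p = 5.87e-05). Gusb, a glucuronidase, went the other way, with 23.2, 23.8 and 23.9 FPKM in HL, 22.1, 25.9 and 20.7 in H, and 27.3, 28.7 and 30.0 in NC, and fell by 0.33 in H against NC (adjusted p = 0.0073). After rescaling to TPM that fall did not pass (-0.14, adjusted p = 0.181). Npc2, the lumenal partner of NPC1, did not pass in any comparison.

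The V-ATPase is built of a membrane sector (V0) and a cytosolic sector (V1), and all 3 tested subunits rose in H against NC. Atp6v1h, a regulatory V1 subunit, had 63.2, 64.8 and 63.7 FPKM in HL, 147, 105 and 118 FPKM in H, and 53.5, 55.3 and 51.4 FPKM in NC. H stood apart, and every HL library was above every NC library. The log2 fold change was 1.19 ± 0.10 in H against NC (adjusted p = 1.12e-05), -0.93 ± 0.10 in HL against H (adjusted p = 0.000114) and 0.26 in HL against NC (adjusted p = 0.0638). Atp6v0d1, the broadly expressed V0 d subunit, had 54.8, 51.3 and 54.0 FPKM in HL, 76.1, 59.6 and 67.3 in H, and 41.7, 43.1 and 41.8 in NC, and rose in H against NC by 0.67 ± 0.08 (adjusted p = 9.19e-05) and fell in HL against H by 0.33 (adjusted p = 0.00843). Atp6v1a, the catalytic subunit, had 81.8, 63.4 and 74.2 FPKM in HL, 53.4, 55.0 and 55.5 in H, and 48.6, 45.4 and 46.9 in NC. Here HL was highest, with a rise of 0.41 ± 0.08 in HL against H (adjusted p = 0.00347). Atp6v0d2, the osteoclast form of the d subunit, was at 0.369 to 0.749 FPKM in HL, 0.230 to 0.804 in H and 0.167 to 0.250 in NC.

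ATG8 proteins are joined to lipid on the growing autophagosome, and all 5 genes of the family rose in H against NC with a median log2 fold change of 0.44, none of them called. Map1lc3b, the source of the LC3 used as an autophagosome marker, had 123, 113 and 121 FPKM in HL, 153, 143 and 137 FPKM in H, and 75.4, 76.6 and 74.3 FPKM in NC. Groups did not overlap. It rose by 0.93 ± 0.06 in H against NC (adjusted p = 1.18e-06) and fell by 0.27 in HL against H (adjusted p = 0.00313). Map1lc3a, its close relative, had 58.5, 61.9 and 71.2 FPKM in HL, 43.8, 47.7 and 52.1 in H, and 34.6, 35.2 and 36.8 in NC. In HL against H it thus moved opposite to Map1lc3b, by 0.41 ± 0.09 (adjusted p = 0.00365). Gabarap, the most abundant of the family, had 228, 241 and 232 FPKM in HL, 290, 254 and 241 in H, and 206, 195 and 190 in NC, a rise of 0.41 ± 0.07 in H against NC (adjusted p = 0.000744). Gabarapl1 rose by 0.44 and Gabarapl2 by 0.55 in that comparison, and in HL against H Gabarapl1 fell by 0.29 (adjusted p = 0.0329). The HL and H libraries of Gabarapl1 overlapped.

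**Figure D4:**
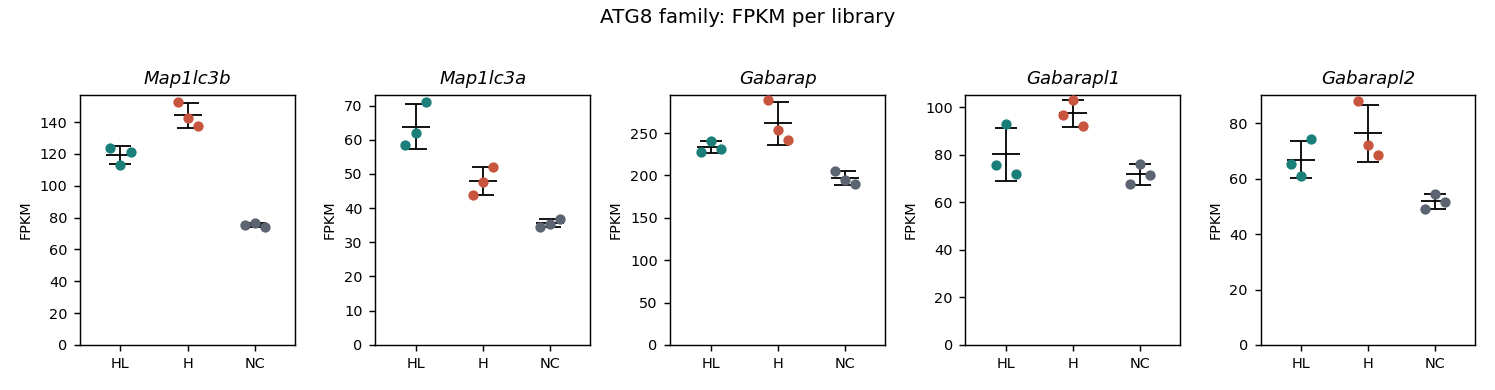
FPKM (vertical axis, from 0) of the 5 ATG8 family genes, 1 point per library, with the mean and SD of the 3 libraries of each group as black bars. Map1lc3b is highest in H at 137 to 153 FPKM, while Map1lc3a is highest in HL at 58.5 to 71.2 FPKM.

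Autophagy receptors link ubiquitinated cargo to ATG8 proteins, and all 3 genes rose in H against NC. Sqstm1, encoding p62, had 693, 677 and 694 FPKM in HL, 1091, 780 and 866 FPKM in H, and 342, 335 and 327 FPKM in NC. All groups were apart, and H libraries varied most. Its log2 fold change was 1.43 ± 0.10 in H against NC (adjusted p = 3.31e-06), -0.39 ± 0.10 in HL against H (adjusted p = 0.0111) and 1.04 ± 0.10 in HL against NC (adjusted p = 6.36e-05). Nbr1 rose by 0.46 and Optn by 0.30 in H against NC. Optn fell by 0.30 in HL against H (adjusted p = 0.0361).

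Of the 6 genes that start autophagy, 2 rose in H against NC, and in HL against H 1 fell. Over all tested genes 27.1% rose and 21.7% fell in those comparisons, so these counts were near the background. Becn1, a subunit of the lipid kinase complex and the most abundant of its group, had 85.3, 66.4 and 82.2 FPKM in HL, 82.0, 68.7 and 74.2 in H, and 80.3, 74.4 and 74.4 in NC. All groups overlapped, and the interval was -0.25 to 0.20 in H against NC and -0.17 to 0.28 in HL against H. The kinases Ulk1 and Ulk2, which receive the mTORC1 signal, did not pass in any comparison, and their intervals lay within -0.37 to 0.33. Atg9a, a lipid scramblase, rose by 0.40 in H against NC (adjusted p = 0.00596) and fell by 0.33 in HL against H (adjusted p = 0.0216), and Wipi2, which recruits the conjugation machinery, rose by 0.29 in H against NC (adjusted p = 0.0177). Wipi1 passed in HL against NC, at 0.25 (adjusted p = 0.0126), and in neither other comparison.

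Conjugation genes attach ATG8 proteins to lipid, and they moved in both directions. Atg4b, the protease that trims ATG8 proteins and the most abundant of this group, had 34.6, 33.6 and 31.3 FPKM in HL, 42.4, 39.1 and 39.8 in H, and 28.1, 33.5 and 27.8 in NC. H was above both other groups, by 0.44 ± 0.08 against NC (adjusted p = 0.00121), and HL fell by 0.28 against H (adjusted p = 0.0175). Atg12 and Atg16l1 rose in H against NC, by 0.41 and 0.20. Atg3, the E2-like enzyme, had 18.1, 18.6 and 18.4 FPKM in HL, 17.8, 16.3 and 15.4 in H, and 20.8, 21.2 and 21.9 in NC, and fell by 0.37 in H against NC (adjusted p = 0.000993). Atg7, the E1-like enzyme, had 14.9, 12.2 and 15.6 FPKM in HL, 10.6, 10.4 and 8.97 in H, and 12.6, 12.5 and 11.4 in NC. It fell by 0.29 in H against NC (adjusted p = 0.0418), which did not pass after rescaling to TPM (-0.09, adjusted p = 0.487), and rose by 0.50 ± 0.11 in HL against H (adjusted p = 0.00405). Atg5, which is joined to ATG12, fell by 0.31 in HL against H (adjusted p = 0.00333).

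A further 144 genes of the pathway were listed by role, and 134 were tested. In H against NC 16 were called higher and 0 lower, with 80 higher and 16 lower by adjusted p alone and a median log2 fold change of 0.30. Over all tested genes 10.3% were called higher and 5.75% lower, and 27.1% were higher and 33% lower by adjusted p alone, so the share called higher was near the background. In HL against H 1 was called higher and 3 lower (3.55% and 5.83% of all genes), and in HL against NC 8 were called higher and 0 lower (6.3% and 2.41% of all genes), the 8 again a share near the background. After rescaling to TPM the calls were 25 higher in H against NC, 1 higher and 5 lower in HL against H, and 12 higher in HL against NC, where 1783, 383, 945 and 1019 of the 13674 genes were called in the same order.

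The other V-ATPase genes called in H against NC were highest in H, as Atp6v1h was. Atp6v0e2, a small V0 subunit, averaged 5.91 FPKM in HL, 11.8 in H and 2.98 in NC (1.94 in H against NC, adjusted p = 6.89e-07), Atp6ap2, an accessory protein, averaged 83.5 in HL, 126 in H and 45.5 in NC (1.46, adjusted p = 4.54e-07), and the V0 subunit Atp6v0b averaged 192 in HL, 285 in H and 123 in NC (1.19, adjusted p = 1.38e-05). Each was below H in HL by adjusted p, and 13 of 16 other V-ATPase genes rose in H against NC with none lower. In HL against H 4 of the 16 rose and 7 fell, where 26.7% of all tested genes rose and 21.7% fell. Among hydrolases, Neu1, the sialidase that works in a complex with Ctsa, was called in H against NC (1.87, adjusted p = 1.52e-06) and averaged 18.5 FPKM in HL, 26.2 in H and 7.03 in NC. Gm2a, the activator that presents GM2 ganglioside to hexosaminidase, was called at 1.03 (adjusted p = 0.000246).

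Membrane proteins outside the 48 included opposite patterns. Gpnmb, a glycoprotein induced by lysosomal stress in macrophages, had 88.2, 97.6 and 86.6 FPKM in HL, 51.2, 29.8 and 47.6 FPKM in H, and 8.57, 7.78 and 7.90 FPKM in NC. It was called in all 3 comparisons, at 2.35 ± 0.17 in H against NC (adjusted p = 4.1e-06), 1.12 ± 0.17 in HL against H (adjusted p = 0.000756) and 3.47 ± 0.17 in HL against NC (adjusted p = 2.73e-06). Cln3, mutated in juvenile Batten disease, had 8.73, 8.78 and 9.09 FPKM in HL, 22.9, 15.1 and 18 in H, and 5.77, 4.56 and 4.01 in NC, and was called higher in H against NC (1.94, adjusted p = 9.49e-06) and lower in HL against H (-1.04, adjusted p = 0.000806). Laptm4b, a transporter-like protein of late endosomes, was called in H against NC at 1.06 (adjusted p = 2.48e-05).

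Of the autophagy genes outside the 48, Uvrag, a partner of Becn1, had 14.5, 13.2 and 14.0 FPKM in HL, 48.3, 41.1 and 40.0 FPKM in H, and 10.2, 13.1 and 10.9 FPKM in NC. It was called in H against NC (1.91 ± 0.10, adjusted p = 7.87e-07) and in HL against H (-1.62 ± 0.10, adjusted p = 6.78e-06), while Becn1 itself passed in neither. Atg14, which directs the same complex to the autophagosome, and Atg2a, a lipid transfer protein, were called in H against NC at 1.34 and 1.14. The receptor Calcoco1 (1.01), the tethering factor Tecpr1 (1.71) and the HOPS and CORVET subunit Vps11 (1.32) were called in the same comparison. These called genes do not stand for their lists. Of 15 tested genes of autophagosome-lysosome fusion, 6 rose and 3 fell in H against NC, with a median log2 fold change of -0.03. Of 13 other receptors, 9 rose and 2 fell, with a median of 0.22.

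Flcn and Fnip2 form complexes that act on the Rag GTPases, which govern how mTORC1 phosphorylates TFEB and TFE3. Flcn had 11.8, 10.9 and 11.3 FPKM in HL, 35.8, 25.2 and 27.5 FPKM in H, and 6.17, 5.54 and 6.26 FPKM in NC. It was called higher in H against NC (2.27 ± 0.12, adjusted p = 6.95e-07) and lower in HL against H (-1.35 ± 0.12, adjusted p = 3.51e-05). Fnip2 was called in H against NC at 1.34 (adjusted p = 6.76e-06). Of the 19 tested genes of mTORC1 on the lysosome and TFEB control, 8 rose and 4 fell in that comparison, with a median of 0.11. Called in HL against NC and in neither other comparison, and named after their values were seen, were Rragd (1.85), Sort1 (1.67), Manba (1.32) and Atp6v1g1 (1.18), and each of these 4 genes also rose in HL against H, by 0.94, 0.70, 0.55 and 0.86.

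**Figure D5:**
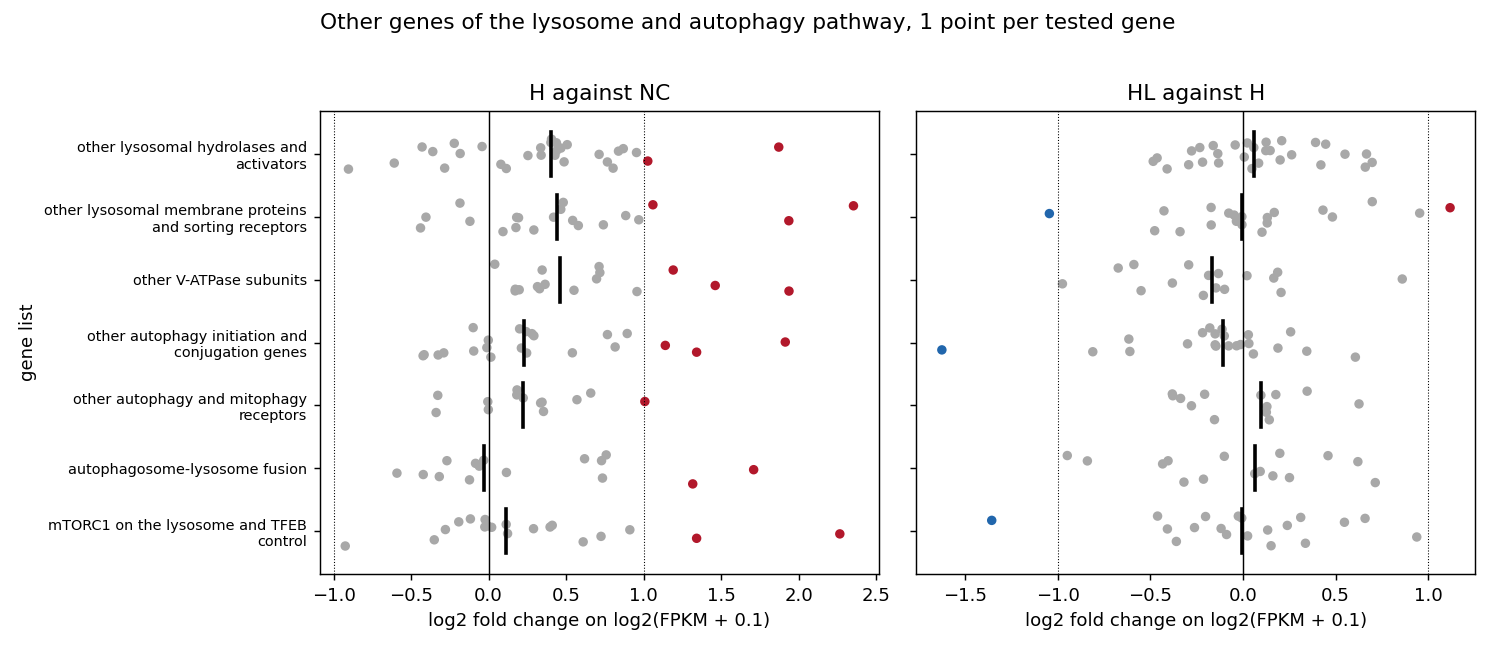
Log2 fold change (horizontal axis) of each tested gene of 7 other pathway lists in H against NC and HL against H, with the list median as a black bar, dotted lines at the fold threshold, red for genes called higher and blue for genes called lower. Called genes in H against NC are all on the right, up to Gpnmb at 2.35, and in HL against H Uvrag at -1.62, Flcn at -1.35 and Cln3 at -1.04 lie to the left.

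Some members share exon sequence with neighbours. On the GENCODE M21 annotation, 8 members had an exon overlap of at least 100 bases with a gene at a mean of at least 1 FPKM, among them the called genes Ctsa, Ctsd, Sqstm1 and Atp6v1h. Beside those 4 called genes the overlapping genes were less abundant, for example 5.94 FPKM for Mrnip beside Sqstm1, 9.82 FPKM for Gm49369 beside Ctsd and 15.8 FPKM for Rgs20 beside Atp6v1h. Beside Npc1, which averaged 18.3 FPKM, the overlapping gene Rmc1 was at 20.1 FPKM. Gm49369 lies on the same strand as Ctsd, and Tmppe on the same strand as Glb1, so strand would not separate their reads. For the overlaps on opposite strands, use of strand in counting is not stated in the sources used here. Reads in these overlaps therefore cannot be assigned.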

How the data were processed

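The deposited table gives FPKM for each gene in 9 libraries. The paper describes trimming of reads with fastp, alignment with HISAT2 2.1.0 and quantification with StringTie 1.3.3b. The deposited table carries the name of another quantifier, salmon, so which tool made these FPKM is not known here. The paper's methods name the human genome, but the identifiers are of mouse Ensembl. FPKM are scaled to mapped reads and transcript length, so no count test was run. All value columns were used.

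Symbols were matched for 51482 of 54307 genes. Log2(FPKM + 0.1) was fitted with limma 3.58.1 (statmod 1.5.0, R 4.3.3), with trend and robust options, in 1 fit of 9 libraries without a replicate block (6 residual degrees of freedom). Testing needed 1 FPKM or more in 3 or more libraries, with Benjamini-Hochberg adjustment within each comparison. The fit was tested on simulated data. Plots used Python 3.11.15, pandas 2.3.3 and matplotlib 3.10.9.

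The members and gene lists were chosen with earlier results of these data known, so no p-value was computed over a list. Per-library values were given for members that were called, for those past an adjusted p of 0.05 with an absolute log2 fold change over 0.58, for the MiT/TFE factors and for the most abundant member of each role. Of the other members, Ctsk, Gusb, Atg3 and Atg7 were also given per library, and Atp6v0d2 as ranges. Other pathway genes were named where called in H against NC or HL against H, up to 4 per list. Promoter sequence is from RefSeq (GRCm38.p6). Protein sequences were not used. Libraries were not treated as paired. Correlations of same-numbered deviations were -0.0366 to 0.0911, and those of differently numbered ones -0.0705 to 0.0597. Between H and NC the same-numbered ones (0.0456 to 0.0911) were all above the differently numbered ones (-0.0705 to 0.0109). A fit with a replicate block is given below.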

Additional observations from a re-analysis of the deposited data

How the results depend on the processing

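Called counts of members (8 higher and 0 lower in H against NC, 0 and 1 in HL against H, 6 and 0 in HL against NC) were compared over other pseudocounts (1 and 0.01), filters (none, or a mean FPKM of 5), scalings, weights, fits and libraries. Rescaling to TPM gave 13 higher in H against NC and 2 lower in HL against H. With it the median of all genes moved from -0.04 to 0.15 in H against NC and from 0.04 to -0.06 in HL against H. Centring on the median gave 9 higher in H against NC. Leaving out 1 library at a time gave 7 to 9 higher in H against NC, 1 to 2 lower in HL against H and 6 to 6 higher in HL against NC, and all called genes were kept in these fits except Gla without H replicate 1. Dropping the fold threshold gave 35 higher and 3 lower in H against NC, 6 and 16 in HL against H, and 27 and 3 in HL against NC.

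Alternatives for those counts by adjusted p alone were chosen after seeing the data. Rescaling to TPM gave 38 higher and 1 lower in H against NC, 6 and 23 in HL against H, and 32 and 1 in HL against NC. In HL against NC the lower count was 5 with variance weights per group and in a fit of only the groups compared. Leaving out 1 library gave 30 to 35 higher and 2 to 4 lower in H against NC, 6 to 9 and 13 to 18 in HL against H, and 25 to 29 and 1 to 4 in HL against NC. The lower count in HL against NC was 1 without HL replicate 1, HL replicate 2, NC replicate 2 or NC replicate 3.

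Of 111 fold changes followed (those of all members given in full, and others where they passed), the following changed direction under at least 1 of the alternatives without passing there, and the cause was not tested. Becn1 was 0.16 in H against NC and -0.045 in HL against H after rescaling to TPM. Leaving out 1 library, Becn1 ranged from -0.10 to 0.032 in H against NC, -0.017 to 0.16 in HL against H and -0.046 to 0.13 in HL against NC. In HL against H, Tfeb ranged from -0.34 to 0.048, Mitf from -0.11 to 0.32, Cd68 from -0.050 to 0.24 and Ctsf from -0.18 to 0.074.

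The replicate number entered as a replicate block left the called counts at 8 and 0, 0 and 1, and 6 and 0, and gave 34 higher and 2 lower, 6 and 16, and 27 and 2 by adjusted p alone. With 3 libraries per group and a median SD of 0.13 in H, small differences between HL and H may go undetected, and the depth was estimated and not stated.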
